A study of Mus musculus with 4 samples.

Results

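The 32 genes described here serve the folding of proteins in the endoplasmic reticulum (ER) and the unfolded protein response: 15 chaperones and folding enzymes, 7 genes of ER-associated degradation, 9 stress sensors, factors and targets, and 1 subunit of the translocon, the channel through which new proteins enter the ER. They were chosen by name, as known genes of these pathways, and all 32 were found among the 30450 gene symbols present in all 4 libraries. The libraries are single-cell RNA libraries of eYFP+ endothelial cells sorted from mouse aorta (arch, thoracic and abdominal portions) and left lung lobe, each from Oct4 wild-type and from Oct4 knockout mice, the knockout being made in endothelial cells. All mice were female, of strain C57/B6J per the labels, Apoe knockout and of an endothelial lineage tracing line, and all ate Western diet over 5 weeks, so no group is free of Apoe loss or of the diet. The sources used here give neither their age nor the time of the Oct4 deletion. Tissue of 2 wild-type and 3 knockout mice was pooled by group, digested with 1 µg/mL actinomycin D, an inhibitor of transcription, and captured with the 10x Chromium system; Cdh5 negative littermates set the sorting gate.

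The ER takes in secreted and membrane proteins and folds them with the help of the Hsp70 chaperone BiP (Hspa5), the lectin chaperones calnexin and calreticulin, and disulfide isomerases. When unfolded proteins accumulate, the sensors IRE1 (Ern1), PERK (Eif2ak3) and ATF6 are released or activated: IRE1 splices Xbp1 mRNA, PERK favours translation of Atf4, and cleaved ATF6 moves to the nucleus, and together these branches raise chaperone and degradation genes. Endothelial cells of large arteries secrete much basement membrane and adhesion protein, all of which passes through this machinery. Gene counts do not tell spliced from unspliced Xbp1 mRNA, nor cleaved from intact ATF6, so what follows concerns mRNA levels only.

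The sequence through which ATF6 and XBP1, with the factor NF-Y, are known to act on these genes is shown for members that hold it. The genes were chosen as known genes of these pathways, so the share of members with the element is not independent of that choice. RefSeq promoters (250 bases before to 50 after the gene start, build GRCm38.p6) were found for 28 of the 32 genes; Manf, Hyou1, Derl1 and Atf6 were not matched. The ER stress response element, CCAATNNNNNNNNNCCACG on either strand, was in the promoters of 9 of these 28 members (32.1%) and of 37 of all 27025 genes with a promoter in the table (0.137%). Its second form, ATTGGNCCACG, was in 2 members (7.14%), Dnajb11 and Herpud1, and in 12 genes of the table (0.0444%). Each stretch below is written 5′ to 3′ on the gene's own strand and lies upstream of the gene start, and capitals mark the fixed letters of an element; where CGTGG precedes ATTGG with 9 bases between, the element lies on the opposite strand.
Hspa5: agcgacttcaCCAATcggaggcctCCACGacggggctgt
Canx: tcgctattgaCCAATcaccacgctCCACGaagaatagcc
Calr: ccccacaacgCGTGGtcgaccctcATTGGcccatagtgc
Pdia6: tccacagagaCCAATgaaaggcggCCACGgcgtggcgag
Creld2: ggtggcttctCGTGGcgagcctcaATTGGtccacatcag
Dnajc3: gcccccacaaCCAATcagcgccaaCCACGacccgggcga
Hsp90b1: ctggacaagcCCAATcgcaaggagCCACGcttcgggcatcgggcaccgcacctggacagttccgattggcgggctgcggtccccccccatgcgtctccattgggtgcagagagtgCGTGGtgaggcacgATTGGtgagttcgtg
Syvn1: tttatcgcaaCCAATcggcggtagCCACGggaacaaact
Derl3: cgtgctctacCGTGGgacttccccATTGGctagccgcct
Herpud1: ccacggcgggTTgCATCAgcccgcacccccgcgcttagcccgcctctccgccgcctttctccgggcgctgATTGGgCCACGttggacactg
In GRCm38.p6 these stretches are chr2:34772015-34772053 (Hspa5, plus strand), chr11:50325790-50325828 (Canx, minus), chr8:84847065-84847103 (Calr, minus), chr12:17266481-17266519 (Pdia6, plus) and chr15:88819510-88819548 (Creld2, plus). The others are chr14:118937817-118937855 (Dnajc3, plus), chr10:86705523-86705666 (Hsp90b1, minus), chr19:6046522-6046560 (Syvn1, plus), chr10:75893232-75893270 (Derl3, plus) and chr8:94386307-94386397 (Herpud1, plus). Hsp90b1 holds the element at 2 places. Of the roles, 7 of 13 chaperones with a promoter, 2 of 6 degradation genes and 0 of 8 stress sensors and factors held the element. With at most 1 mismatch in its fixed letters these were 9 of 13, 5 of 6 and 1 of 8. In all, 15 of 28 members and 1.72% of all genes then held it, so the order of the roles depends on the exact match.

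The ATF4 composite element, TGATGNAA on either strand, was in 4 of the 28 members (14.3%) and in 1219 genes of the table (4.51%). It was found in Herpud1, where it reads TTgCATCA in the stretch above, and in Trib3, Chac1 and Asns, which are known targets of ATF4. For comparison the elements of Chac1 (chr2:119351039-119351066, plus strand) and Asns (chr6:7693215-7693242, minus strand) are shown in capitals.
Chac1: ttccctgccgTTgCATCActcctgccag
Asns: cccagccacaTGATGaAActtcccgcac
The unfolded protein response element TGACGTGG, which shares its CGTGG with the reverse of CCACG, was in 0 of 28 members and in 193 genes (0.714%). CCAAT alone, which is the first part of the ER stress response element, was in 23 of 28 members (82.1%) and in 41.1% of all genes of the table. A match describes the letters of these windows and is not a measured binding site.

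Depth was 1034161 to 4483756 UMIs (unique molecular identifiers, each counting 1 captured molecule) per library. The wild-type and knockout aorta had 449 and 1623 barcodes and the wild-type and knockout lung 800 and 529; in that order 404, 1569, 775 and 508 had at least 500 UMIs and at most 15% mitochondrial UMIs. Of the kept cells 395, 1525, 743 and 488 (95.9% to 97.8%) lay in endothelial-like clusters, and 10 to 11 of 12 endothelial markers had a UMI in at least 25% of kept cells. Each pair of libraries shared at most 2 barcodes. Pou5f1, the gene that encodes Oct4, had 0, 1, 2 and 1 UMIs, so its counts check no label. Markers of other cells differed between libraries within the endothelial-like cells: summed fibroblast markers stood at 297, 1029, 23.3 and 9.65 CPM (the share of all UMIs of endothelial-like cells, as counts per 1000000), smooth muscle markers at 489, 710.3, 224 and 129.8 CPM, and erythroid markers at 2540 CPM in the wild-type aorta against 9.23, 0.706 and 83.7. Summed epithelial markers stood at 163, 128, 50.1 and 439 CPM, 8.75-fold (6.79 to 11.4) higher in the knockout than in the wild-type lung, with 6, 4, 2 and 4 of the 8 markers at 0 UMIs. In the aorta most of that sum was Krt18, at 160 and 126 CPM, and in the lung Scgb1a1, a club cell secretory protein, at 32.5 and 424 CPM; Epcam had 0, 1, 0 and 0 UMIs. Each group is 1 library, so differences between groups come without replicates or tests, and the exact 95% intervals cover counting error only. Library and group cannot be told apart.

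The 15 chaperones made up most of the signal. Their summed level in the aorta was 2569 CPM in wild-type and 3106 in knockout cells, and in the lung 2107 and 2583, so both knockout libraries were above the wild-type library of their tissue and both aortic libraries above the lung library of their genotype. The 7 degradation genes summed to 340.4 CPM, 333, 339 and 420.4 in the same order, with the knockout lung standing above the other libraries. The 9 stress sensors and factors summed to 372, 385, 746 and 794 CPM, with both lung libraries well above both aortic ones. Sec61b, the beta subunit of the translocon, stood at 200.5, 240.3, 174 and 200.6 CPM. Counts were not scaled to gene length and no source used here names the captured end of the transcript, so an order between genes is one of captured molecules.

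Among chaperones, Hspa5 and Pdia3, the disulfide isomerase that works with the lectin chaperones, gave the most UMIs. Hspa5 (chr2:34771970-34777547 in GENCODE M21 on mm10, plus strand) stood at 404 CPM in wild-type and 562 in knockout cells of the aorta, and at 354 and 512 in those of the lung. Pdia3 stood at 406, 492, 281 and 331 CPM. Both were lowest in the wild-type lung and highest in the knockout aorta. Hsp90b1, the Hsp90 of the ER, stood at 302, 354, 232 and 300.3 CPM. Calr and Canx, the lectin chaperones that hold glycoproteins, stood at 299, 287, 185 and 262 CPM and at 212, 237, 164 and 153 CPM, so Calr was low in 1 library, the wild-type lung, and Canx in both lung libraries. The disulfide isomerases Pdia4, Pdia6 and P4hb, the last also a subunit of collagen prolyl hydroxylase, lay between 50.8 and 249.5 CPM and were each lowest in the wild-type lung.

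Manf, a small ER protein that binds BiP and can be secreted, stood at 131, 193, 128 and 195 CPM in the same order of libraries, with both knockout libraries near each other and above both wild-type libraries. Of the J-domain partners of BiP, Dnajb9 stood at 112, 129, 167 and 129.8 CPM, with the wild-type lung above the rest. Dnajb11 and Dnajc3 lay between 83.5 and 103 CPM and between 162 and 182 CPM. The other 3 members had few UMIs: Creld2, an ER protein with disulfide isomerase motifs, lay between 19.1 and 42.9 CPM, Sdf2l1, a partner of BiP and its J proteins, between 12.5 and 25.6 CPM, and Hyou1, the nucleotide exchange factor of BiP, between 4.23 and 7.51 CPM.

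**Figure D1:**
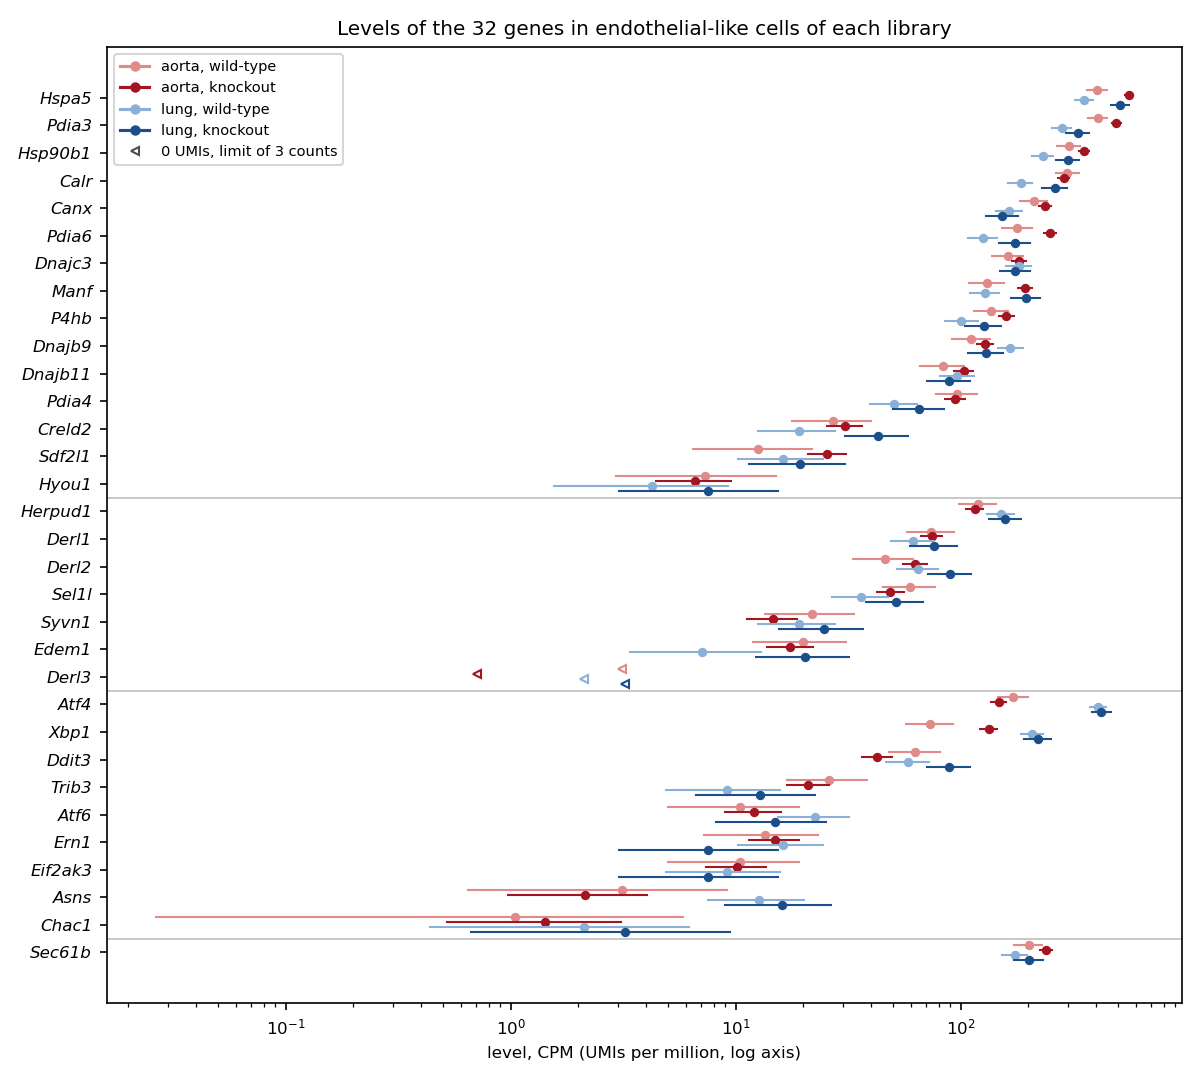
Level of each of the 32 genes (CPM, log axis) in the endothelial-like cells of the 4 libraries, with exact 95% Poisson intervals; open triangles mark the limit of 3 counts where no UMI was counted. Lines separate chaperones, degradation genes, stress sensors and factors, and Sec61b; Atf4 and Xbp1 are the members whose lung points lie farthest to the right of the aortic ones among genes above 50 CPM.

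In degradation, Herpud1, a membrane protein that organises the ubiquitin ligase complex, had the most UMIs, at 119, 115, 151 and 158 CPM. Both lung libraries were above both aortic libraries. Derl1 and Derl2, which help move misfolded proteins out of the ER, stood at 74.1, 74.3, 61.4 and 76.1 CPM and at 45.9, 62.7, 64.9 and 90.1 CPM. Sel1l, the adaptor of the ligase, lay between 36.0 and 59.5 CPM, and Syvn1, the ligase itself, between 14.7 and 24.7 CPM. Edem1, which marks glycoproteins for removal, had 10 to 74 UMIs per library and lay between 7.06 and 20.4 CPM. Derl3 had 0 UMIs in all 4 libraries, which at 3 counts allows up to 3.13, 0.710, 2.12 and 3.22 CPM, although its promoter holds the ER stress response element shown above.

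The 3 sensors were sparse. Atf6 stood at 10.4, 12.1, 22.6 and 15.02 CPM, Ern1 at 13.6, 14.9, 16.2 and 7.51 CPM, and Eif2ak3 at 10.4, 10.2, 9.18 and 7.51 CPM, and for each sensor the intervals of the 4 libraries overlapped. The factors downstream had more UMIs. Xbp1 (chr11:5520659-5525893, plus strand) stood at 73.1, 133, 208 and 219.9 CPM, an order in which the wild-type aorta was lowest, the knockout aorta next, and the lung libraries highest with overlapping intervals. Atf4 (chr15:80255184-80257541, plus strand) stood at 171, 148, 407 and 423 CPM, with both lung libraries far above both aortic ones. Ddit3 (chr10:127290774-127296288, plus strand), which encodes the factor CHOP, stood at 62.7, 42.6, 58.6 and 89.0 CPM, lowest in the knockout aorta and highest in the knockout lung. Of ATF4's targets, Trib3, a pseudokinase, stood at 26.1, 21.1, 9.18 and 12.9 CPM, and Asns, asparagine synthetase, at 3.13, 2.13, 12.7 and 16.1 CPM. Trib3 thus stood higher in the aorta and Asns higher in the lung, on 25, 89, 13 and 12 UMIs and on 3, 9, 18 and 15 UMIs. Between tissues the intervals overlapped for Trib3 in knockout mice and for Asns in wild-type mice. Chac1, which degrades glutathione, had 1, 6, 3 and 3 UMIs, too few to order.

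Oct4 knockout was compared with wild-type within each tissue. In the aorta, 20 of the 32 members had enough counts for a ratio (30 UMIs or more over both libraries and 50 CPM or more on average); 14 were higher and 6 lower in the knockout, with a median log2 ratio of 0.21 against 0.03 over all 3001 genes. Of the chaperones with enough counts, 10 of 12 were higher. Among all genes 54.3% were. Members at least 1.5-fold higher numbered 1 of 20, Xbp1, where 2.9% of all genes were so, and 0 of 20 were at least 1.5-fold lower, where 2.47% of all genes were.

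Xbp1, at 73.1 CPM in the wild-type and 133 in the knockout aorta, had a ratio of 1.82 (1.42 to 2.37). Next came Manf, at 131 and 193 CPM, with 1.48 (1.22 to 1.80), and Pdia6, at 179 and 249.5 CPM, with 1.40 (1.19 to 1.65). Hspa5 had 1.39 (1.25 to 1.55), from 404 and 562 CPM. These 4 intervals lay above 1, as did those of Pdia3, Hsp90b1 and Sec61b. At the other end stood Ddit3, at 62.7 and 42.6 CPM, with 0.680 (0.505 to 0.927), Sel1l, at 59.5 and 48.8 CPM, with 0.819 (0.608 to 1.12), and Atf4, at 171 and 148 CPM, with 0.861 (0.724 to 1.03). Herpud1 had 0.969 (0.788 to 1.20). Calr, with 0.960 (0.843 to 1.10), and Pdia4, with 0.986 (0.784 to 1.25), were the chaperones that were not higher, and the intervals of Canx, P4hb, Dnajb9, Dnajb11 and Dnajc3 included 1. Among members below the count limit, Sdf2l1 had 12 and 108 UMIs and a ratio of 2.04 (1.12 to 4.07).

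The chaperone sum was 1.21-fold (1.16 to 1.26) higher in the knockout aorta. The degradation sum had a ratio of 0.979 (0.868 to 1.11), the stress sum 1.04 (0.923 to 1.17), and Sec61b 1.20 (1.03 to 1.41), near that of the chaperones. The Col8a1-led cluster described below held 134 knockout and 8 wild-type cells. Without it the chaperone ratio was 1.11 (1.06 to 1.16), an alternative added after seeing the data. In clusters compared one by one the chaperone sum was higher in the knockout in 9 of 9 aortic clusters, with ratios of 1.03 to 1.35 and 4 intervals above 1. Hspa5 was higher in 8 of 9 (5 intervals above 1) and Xbp1 in 7 of 7 with enough counts (2 above 1). Manf was higher in 7 of 8 and Pdia6 in 6 of 8 (1 interval above 1 each). Pdia3 and Hsp90b1 were each higher in 6 of 9 and lower in 3, with 0 intervals above 1. Sec61b was higher in 5 of 7, with 0 intervals above 1 and 1 below it. Manf, Pdia6, Pdia3, Hsp90b1 and Sec61b stood high in the Col8a1-led cluster, which is not among the clusters compared. Calr was lower in the knockout in 7 of 8 clusters with enough counts (2 intervals below 1) and Pdia4 in 4 of 6 (none clear of 1). Ddit3 was lower in the 4 clusters with at least 30 UMIs of it, with no interval clear of 1. The wild-type library had a higher erythroid and the knockout library a higher fibroblast sum, as given above. The higher fibroblast sum lay mostly in Dcn, at 68.9 CPM in wild-type and 709.6 in knockout cells, and Lum, at 0 and 92.8 CPM. Gsn stood at 182.7 and 204.6 CPM and Col1a1 at 7.31 and 7.34 CPM, and Col3a1 went the other way, at 36.5 and 13.02 CPM. With haemoglobin, mitochondrial and ribosomal protein genes left out of the denominator the chaperone ratio was 1.19. The part of the fibroblast markers was not tested.

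In the lung, 19 members had enough counts. Of them 15 were higher and 4 lower in the knockout, where 54.0% of all genes were higher. Their median log2 ratio was 0.31 against 0.02 over all 3356 genes. Members at least 1.5-fold higher numbered 2 of 19, Manf and Ddit3, where 2.53% of all genes were so, and 0 of 19 were at least 1.5-fold lower, where 1.58% of all genes were. Manf, at 128 and 195 CPM, had a ratio of 1.52 (1.23 to 1.88), and Ddit3, at 58.6 and 89.0 CPM, had 1.52 (1.11 to 2.09). Both lay on the edge of the fold used: with all kept cells in place of endothelial-like ones, 0 members passed it. Hspa5, at 354 and 512 CPM, had 1.44 (1.27 to 1.64), and Calr, at 185 and 262 CPM, had 1.42 (1.18 to 1.69).

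The lowest ratios in the lung belonged to 2 J-domain proteins and a lectin chaperone. Dnajb9, at 167 and 129.8 CPM, had 0.779 (0.621 to 0.974), Dnajb11, at 96.7 and 89.0 CPM, had 0.921 (0.692 to 1.22), and Canx, at 164 and 153 CPM, had 0.933 (0.752 to 1.15). Xbp1, Atf4 and Herpud1 had ratios of 1.06 (0.879 to 1.27), 1.04 (0.911 to 1.18) and 1.04 (0.840 to 1.29), so the ratio of Xbp1 in the aorta had no counterpart in the lung, a difference that was not tested. Below the count limit, Creld2 had 27 and 40 UMIs and a ratio of 2.25 (1.35 to 3.81), and Edem1 had 10 and 19 UMIs and 2.89 (1.28 to 6.95).

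Summed chaperones were 1.23-fold (1.16 to 1.29) higher in the knockout lung, degradation genes 1.24-fold (1.08 to 1.42), and the stress sum had a ratio of 1.06 (0.967 to 1.17). The epithelial markers given above moved with these sums, mostly through Scgb1a1, and their part was not tested. By cluster the chaperone sum was higher in the knockout in 7 of 7 lung clusters, with ratios of 1.03 to 1.36 and 4 intervals above 1; Hspa5 was higher in 7 of 7 and Manf in 5 of 5 with enough counts. Per cell, after thinning each cell to 1000 UMIs, the mean chaperone count was 2.51 in wild-type and 2.88 in knockout cells of the aorta, and 2.07 and 2.51 in those of the lung. Cells with none made up 11.8%, 7.52%, 15.9% and 8.02% of 323, 1383, 610 and 374 cells deep enough (72, 142, 133 and 114 were too shallow). The knockout libraries also had higher summed heat shock genes of the cytosol and mitochondria, 4105, 4835, 4118 and 5169 CPM in the order of libraries. These are chaperones of compartments other than the ER. The part of cell handling in these values was not tested.

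**Figure D2:**
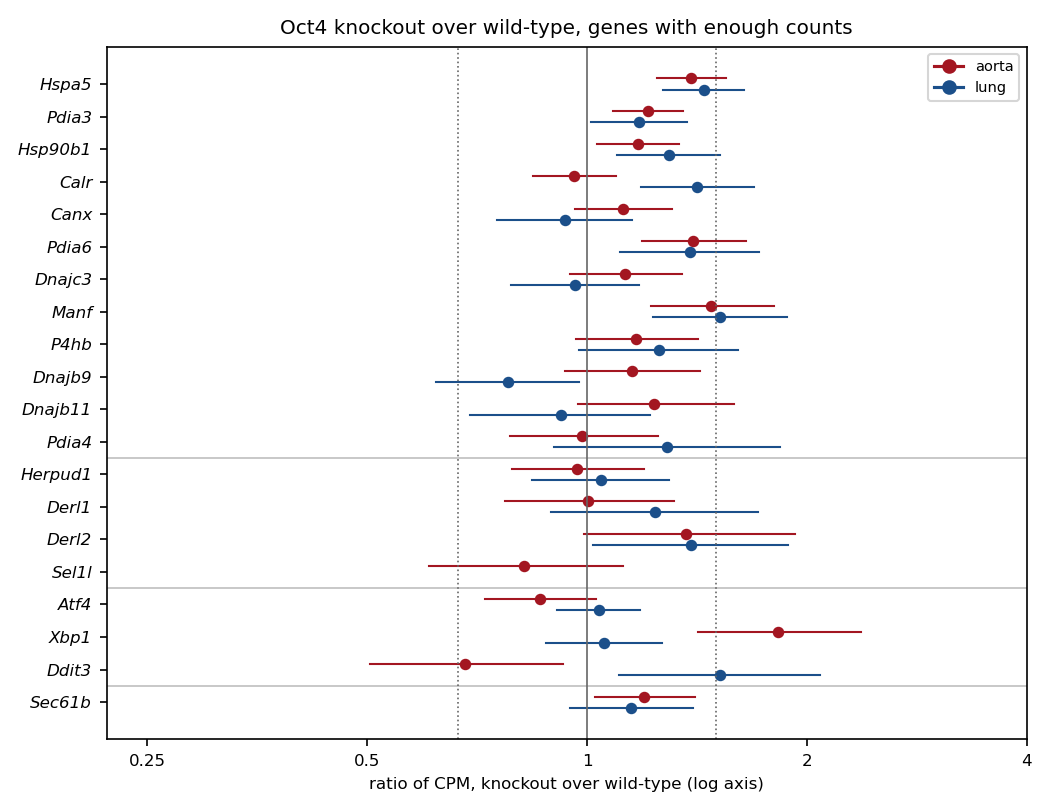
Ratio of CPM, knockout over wild-type (log axis), for members with enough counts in the aorta and in the lung, with exact 95% intervals for counting error; dotted lines mark 1.5-fold. Hspa5, Manf, Pdia6, Hsp90b1 and Pdia3 lie above 1 in both tissues, and Ddit3 lies below 1 in the aorta (0.680) and above it in the lung (1.52).

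Aorta was compared with lung within each genotype; the 2 comparisons share no library with each other but each shares both of its libraries with the genotype comparisons. In wild-type mice 19 members had enough counts, 12 higher and 7 lower in the aorta, where 44.1% of all genes were higher. Their median log2 ratio was 0.19 against -0.09 over all 3221 genes. At least 1.5-fold higher were 2 of 19 (14.8% of all genes) and at least 1.5-fold lower 2 of 19 (24.7% of all genes). In knockout mice 20 had enough counts, 11 higher and 9 lower, where 44.2% of all genes were higher. Their median was 0.10 against -0.09 over 3257 genes. At least 1.5-fold higher were 1 of 20 (15.8% of all genes) and lower 3 of 20 (25.9% of all genes). These shares are below or near those of all genes, and with 19 and 20 members the counts are too small to read as a difference.

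Disulfide isomerases and lectin chaperones led in the aorta. In wild-type mice Pdia4, at 96.1 CPM in the aorta and 50.8 in the lung, had a ratio of 1.89 (1.37 to 2.61), Calr, at 299 and 185, had 1.62 (1.36 to 1.92), and Pdia3, at 406 and 281, had 1.45 (1.25 to 1.67). In knockout mice Canx, at 237 and 153 CPM, had 1.55 (1.30 to 1.86), Pdia3, at 492 and 331, had 1.49 (1.32 to 1.68), and Pdia4, at 94.7 and 65.4, had 1.45 (1.10 to 1.93). Without the Col8a1-led cluster 0 members, Canx included, were at least 1.5-fold higher in the knockout aorta. Hspa5 differed little, with ratios of 1.14 (0.996 to 1.30) and 1.10 (0.994 to 1.21) in wild-type and knockout mice.

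Of the stress factors, Xbp1 and Atf4 led in the lung. Xbp1 was 2.85-fold (2.19 to 3.75) higher in the lung than in the aorta of wild-type mice and 1.65-fold higher in knockout mice (aorta over lung 0.606, 0.516 to 0.715). Atf4 was 2.38-fold higher in the lung of wild-type mice (aorta over lung 0.421, 0.351 to 0.501) and 2.86-fold higher in that of knockout mice (0.349, 0.307 to 0.397). Both intervals lay far from 1 in both genotypes. Ddit3, the factor that acts with ATF4, stood at 62.7 and 58.6 CPM in wild-type aorta and lung, with a ratio of 1.07 (0.754 to 1.51), and at 42.6 and 89.0 CPM in knockout aorta and lung, with 0.479 (0.367 to 0.629). Herpud1 had 0.788 (0.622 to 0.994) and 0.731 (0.607 to 0.886), and Dnajb9 had 0.671 (0.529 to 0.846) in wild-type mice and 0.991 in knockout mice.

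By role, the chaperone sum was 1.22-fold (1.16 to 1.29) higher in the aorta of wild-type and 1.20-fold (1.15 to 1.26) higher in that of knockout mice, where it was 1.10 (1.06 to 1.15) without the Col8a1-led cluster. The degradation sum had ratios of 1.00 and 0.793 (0.708 to 0.889). The stress sum had ratios of 0.498 (0.441 to 0.562) and 0.485 (0.445 to 0.530), so chaperones and stress factors stood on opposite sides in both genotypes. Secreted matrix genes, a list of ER cargo, summed to 13916 and 16200.3 CPM in the aortic libraries and to 2873 and 3104 in the lung libraries (wild-type, knockout). Immediate early genes, which respond to handling, summed to 7972 and 7046 CPM in the aorta and to 13216 and 12785 in the lung. These lists moved with the tissue, and their part in the ratios was not tested.

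**Figure D3:**
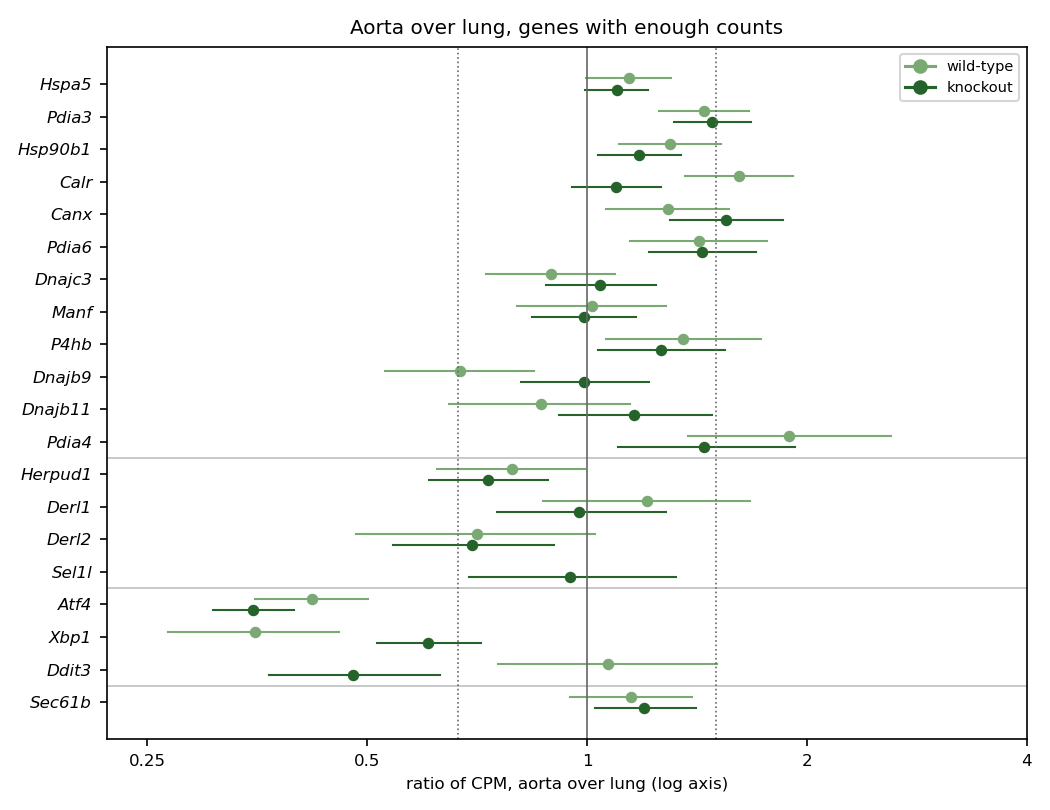
Ratio of CPM, aorta over lung (log axis), for members with enough counts in wild-type and in knockout mice, with exact 95% intervals for counting error; dotted lines mark 1.5-fold. Pdia3, Pdia6 and Pdia4 lie above 1 and Atf4 and Xbp1 below it in both genotypes.

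Members that hold an exact match to the ER stress response element were set beside those that do not. In the knockout over wild-type aorta their median log2 ratios were 0.20 (6 members with enough counts) and 0.21 (12 members), and in the lung 0.42 (6) and 0.20 (11). For aorta over lung they were 0.37 (6) and -0.21 (11) in wild-type mice, and 0.19 (6) and -0.05 (12) in knockout mice. The 6 are the chaperones Hspa5, Hsp90b1, Calr, Canx, Pdia6 and Dnajc3, whereas Atf4, Xbp1 and Ddit3 hold no such element in their windows, so the element and the role of the gene cannot be told apart here.

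The wider pathway was counted in 4 lists, of 23 folding genes, 19 degradation genes, 18 genes of the translocon and signal peptide machinery and 30 genes of the stress response. In the knockout over wild-type aorta 11 folding genes were higher and 3 lower of 14 with enough counts, with 9 and 2 of 11 in degradation, 15 and 2 of 17 in the translocon and 6 and 4 of 10 in the stress response. In the lung these were 10 and 4 of 14, 7 and 5 of 12, 9 and 6 of 15, and 4 and 6 of 10. Of all genes 54.3% were higher in the knockout in the aorta and 54.0% in the lung. In the aorta 3 of these genes were at least 1.5-fold higher, where 2.9% of all genes were so: Serpinh1, the collagen chaperone, at 185 CPM in wild-type and 320.1 in knockout cells (1.73-fold, 1.48 to 2.04), Erlec1, a lectin of degradation, at 52.2 and 90.2 CPM, and Tram1, a translocon partner, at 84.6 and 133 CPM. In the lung, where 1.58% of all genes were at least 1.5-fold lower, 1 of them was, Cebpb, a transcription factor, at 63.5 and 40.8 CPM.

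Between tissues 13 of 14 genes of the folding list were higher in the aorta in wild-type and 12 of 14 in knockout mice, where 44.1% and 44.2% of all genes were. The stress response list had 8 of 12 and 7 of 11 lower in the aorta, near the 1802 of 3221 and 1819 of 3257 among all genes. Degradation had 9 of 11 and 7 of 11 lower in the aorta, and the translocon list 7 of 16 and 4 of 16. The largest ratio was that of Nupr1, a stress-induced nuclear protein, at 507.5 CPM in the aorta and 15.5 in the lung of wild-type mice and at 644 and 16.1 CPM in knockout mice. Next came the disulfide isomerases Txndc5 (167 and 50.1 CPM in wild-type aorta and lung, 235 and 60.1 in knockout), Tmx1 (234 and 82.6, 220.2 and 79.4) and Pdia5 (84.6 and 33.2, 111 and 37.5). Lower in the aorta were Stt3b, a subunit of the oligosaccharide transferase, at 53.3 CPM against 238 in wild-type and 73.6 against 219 in knockout mice, and Wars, a tRNA synthetase, at 30.3 against 126 and 34.1 against 162 CPM. Atf3, a factor that ATF4 is known to induce, stood at 175 against 414 CPM and at 139.7 against 419 CPM.

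Vessel types were taken from clusters made within each tissue without the 32 members, the wider ER lists or the stress lists. In the aorta the cluster named capillary-like (59 wild-type and 104 knockout cells, led by Rgcc, Car4 and Timp4) had the highest levels of Hspa5, Dnajb9, Atf4 and Ddit3 among the clusters of both libraries. Hspa5 was at 1158 CPM in its wild-type cells against 336 in the other endothelial-like cells (3.45-fold, 2.70 to 4.37), and at 1088 against 541 in its knockout cells (2.01-fold, 1.72 to 2.35). Ddit3 was at 201 against 50.1 CPM in wild-type cells (4.02-fold, 2.12 to 7.27) and at 105 against 40.1 in knockout cells (2.62-fold, 1.49 to 4.33). Atf4 was at 453 against 146 CPM and 284 against 142 CPM, and Dnajb9 at 277 against 96.8 CPM and 303 against 122 CPM. These 4 members were higher in the cluster in both libraries.

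Some other folding genes stood lower in the same cells. Pdia3 was at 151 against 429 CPM in wild-type and 216 against 503 CPM in knockout cells, P4hb at 37.8 against 146 CPM and 68.0 against 163 CPM, and Canx at 88.1 against 223 CPM and 136 against 242 CPM. Hsp90b1 was at 201 against 311 CPM and 185 against 361 CPM, and Sec61b at 113 against 208 CPM and 111 against 245 CPM. Calr was at 466 against 284 CPM in wild-type cells (1.64, 1.13 to 2.33), the highest of 9 clusters, but at 223 against 289 CPM in knockout cells (0.770, 0.536 to 1.07). Pdia6 was at 151 against 181 CPM (a ratio of 0.834) and at 303 against 247 CPM (1.22), with both intervals including 1, so neither gene lay clear on one side in both libraries. The chaperone sum came to ratios of 1.15 and 1.01. Of 18 members with enough counts in each library, 6 were at least 1.5-fold higher and 9 lower in wild-type cells (26% and 29.6% of all genes), and 4 higher and 6 lower in knockout cells (22.2% and 22% of all genes).

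The capillary-like cells were shallow, with medians of 1128 and 1336.5 UMIs. Their heat shock genes of cytosol and mitochondria summed to 9995 against 3572 CPM in wild-type and 11859 against 4556 CPM in knockout cells. Their immediate early genes summed to 18769 against 6995 CPM and 13708 against 6781 CPM. Matrix cargo was low in them, at 3613 and 6418 CPM. The part of depth, handling and cargo in the values of this cluster was not tested.

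Over the 9 aortic clusters with at least 20 cells of each genotype, spread was taken as highest over lowest with both genotypes together. The Col8a1-led cluster was not among them. Among members at 50 CPM or more on average, the 3 that differed most were Dnajb9 (6.07-fold), Ddit3 (4.94-fold) and Hspa5 (4.04-fold). Each was highest in the capillary-like cluster. In the wild-type aorta Hspa5 was lowest in the Klk10-led cluster, at 151 CPM, with a median of 335 CPM over 9 clusters. In the knockout aorta it was lowest in the Atp1b1-led cluster, at 317 CPM, with a median of 557 CPM over 10 clusters. Chaperone sums varied less, from 2195 to 3146 CPM over 9 clusters in the wild-type aorta and from 2424 to 4247 CPM over 10 clusters in the knockout aorta.

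The highest chaperone sum belonged to the Col8a1-led cluster of the knockout aorta (134 cells, median 5302.5 UMIs, also led by Tubb3 and Serpina3n), at 4247 CPM against 2851.5 in the other endothelial-like cells, a ratio of 1.49 (1.43 to 1.55). Of 19 members with enough counts 15 were higher and 4 lower there, where 1469 of all 2950 genes were higher. At least 1.5-fold higher were 8 of the 19 (10.9% of all genes) and at least 1.5-fold lower 0 (11.9% of all genes). Pdia6 was at 461 against 202 CPM (2.28-fold, 2.00 to 2.59), Manf at 340.4 against 160.4 CPM (2.12-fold), and Sec61b at 364 against 213 CPM (1.71-fold). Pdia3 was at 703 against 445 CPM, Hsp90b1 at 504 against 321 CPM and Calr at 404 against 261 CPM; P4hb and Pdia4 had ratios of 1.61 and 1.60. The stress sum was 377 against 387 CPM, although Xbp1 was at 178 against 123 CPM (1.44, 1.18 to 1.75). The 8 wild-type cells of the cluster gave a sum over the chaperones of 2795 CPM (2161 to 3556). Matrix cargo summed to 33574 against 12329 CPM in the knockout cells, and matrix genes took part in making the clusters. Fibroblast markers stood at 3088 CPM and smooth muscle markers at 2175 CPM in this cluster, where the next highest aortic clusters of that library had 1060.2 and 1645 CPM, and their part was not tested.

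**Figure D4:**
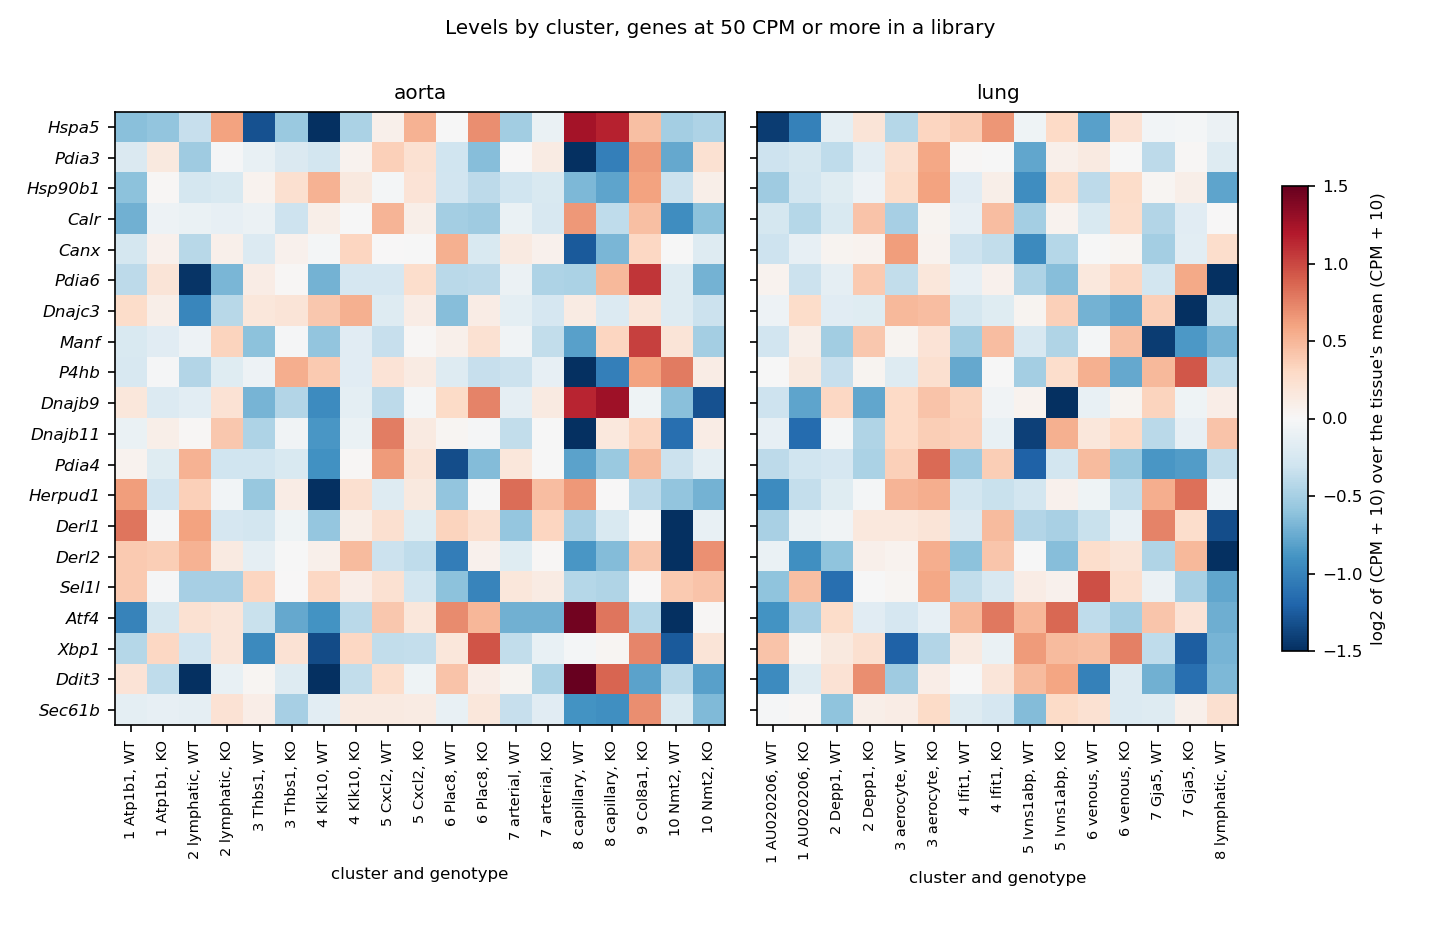
Level of members at 50 CPM or more in a library by cluster and genotype in the aorta and the lung. Values are log2 of (CPM + 10) over (mean + 10), the mean being that of the CPM of the tissue's wild-type and knockout libraries. Clusters of at least 20 cells are shown, named by number and class or first leading gene. The aortic capillary columns are red for Hspa5, Dnajb9, Atf4 and Ddit3 and blue for Pdia3, P4hb and Canx, and the Col8a1 column is red for Pdia6 and Manf.

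In the lung the aerocyte-like cluster (133 wild-type and 99 knockout cells, led by Fibin, Ednrb and Emp2), a capillary type specialised for gas exchange, had the highest chaperone sum of the lung clusters in both libraries and a degradation sum above that of the other cells. Its chaperone sum was 2465 against 1996 CPM in wild-type (1.23-fold) and 3092 against 2432 CPM in knockout cells (1.27-fold), and its degradation sum 474 against 298 CPM (1.59-fold) and 565 against 378 CPM (1.49-fold). Hsp90b1 was at 325 against 203 CPM and 409 against 268 CPM, Pdia4 at 77.6 against 42.5 CPM and 113 against 51.4 CPM, and Herpud1 at 224 against 128.5 CPM and 231 against 136 CPM. Xbp1 went the other way, at 86.5 against 246 CPM in wild-type (0.352, 0.231 to 0.517) and 155 against 239 CPM in knockout cells (0.650, 0.434 to 0.948). Hence the lung cells with the most chaperone mRNA had the least Xbp1 mRNA in the wild-type library. Of 19 members in the wild-type lung 5 were at least 1.5-fold higher (24.1% of all genes) and 1 lower (18% of all genes). Of 21 in the knockout lung 9 were higher (23.1% of all genes) and 1 lower (19.8% of all genes). Immediate early genes were low in this cluster, at 8032 against 14822 CPM and 8240 against 14126 CPM, and their part was not tested.

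Over the 7 lung clusters with at least 20 cells of each genotype, spread was taken as highest over lowest with both genotypes together. Among members at 50 CPM or more on average, the 3 that differed most were Hspa5 (3.59-fold), Manf (3.03-fold) and Ddit3 (2.98-fold). Pdia4, just below that limit at 49.3 CPM and with 124 UMIs, had 3.35-fold. The lymphatic-like cluster, with 19 knockout cells, was not among these clusters. Over 8 clusters of the wild-type lung, that cluster included, Pdia6 ran from 21.3 to 169 CPM and Derl2 from 10.7 to 94.9 CPM. Both were lowest in the lymphatic-like cells, where these levels rest on few UMIs. Hspa5 was highest in the Ifit1-led cluster, which is led by interferon-response genes, at 566 CPM in wild-type and 689 in knockout cells, and lowest in the AU020206-led cluster, at 156 and 209 CPM. With both libraries together Manf was highest in the venous-like cluster, at 158 and 225 CPM, and lowest in the Gja5-led cluster, at 54.2 and 84.7 CPM; by library it was highest in the aerocyte-like cluster in wild-type (167 CPM) and in the Ifit1-led cluster in knockout cells (227 CPM). Together Ddit3 was highest in the Ivns1abp-led cluster, at 106 and 116 CPM, and lowest in the Gja5-led cluster, at 40.7 and 28.2 CPM, where it had 3 UMIs and 1 UMI; by library the Depp1-led cluster was highest in knockout cells (126 CPM) and the venous-like cluster lowest in wild-type cells (31.6 CPM). Xbp1 reached 295 and 368 CPM in the venous-like cluster.

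**Figure D5:**
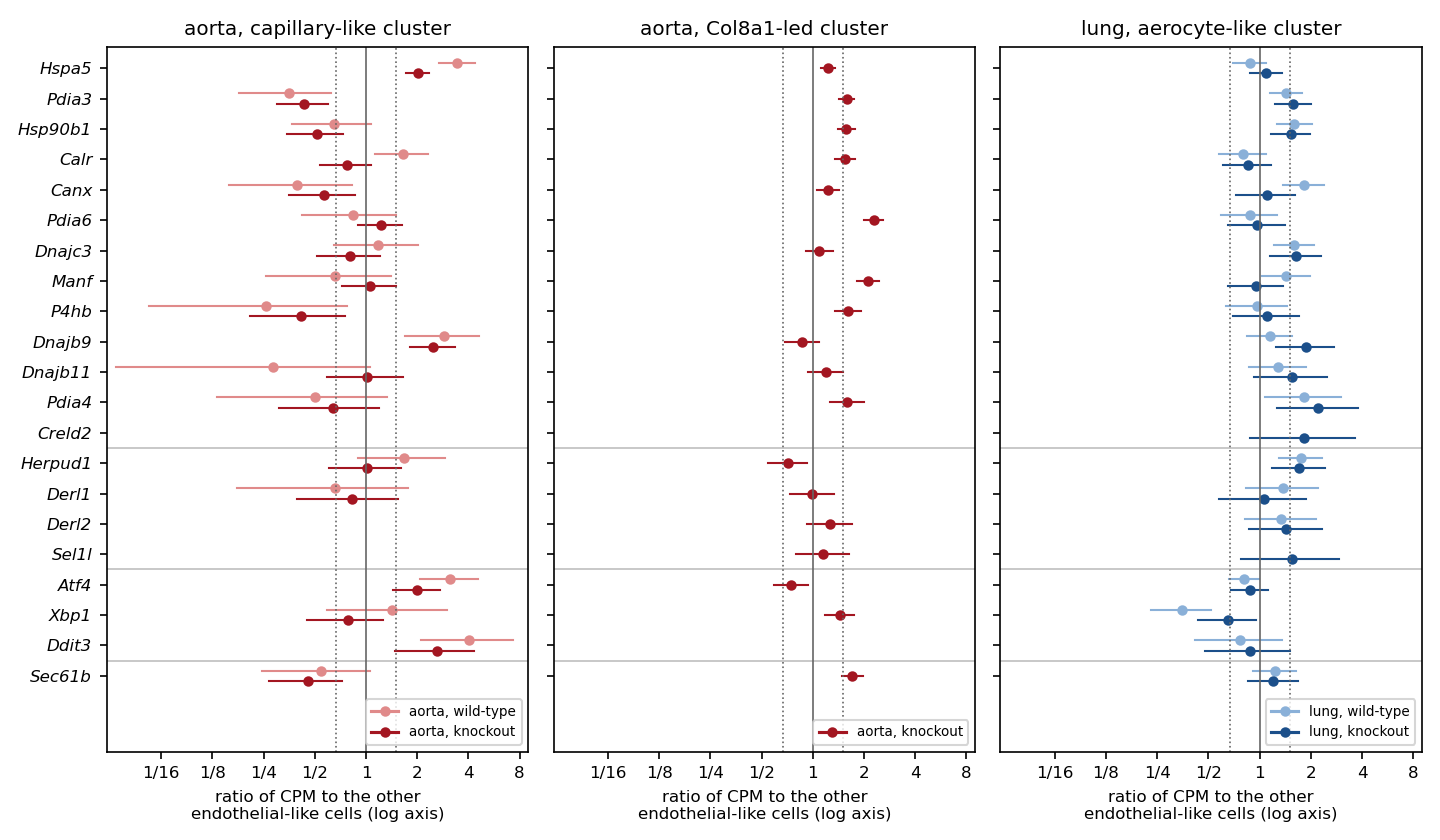
Ratio of CPM in 3 clusters to the other endothelial-like cells of the same library (log axis), for members with enough counts, with exact 95% intervals for counting error; dotted lines mark 1.5-fold. Hspa5, Dnajb9, Atf4 and Ddit3 lie to the right in the aortic capillary-like cluster, Pdia6 (2.28) and Manf (2.12) in the Col8a1-led cluster, and Xbp1 lies to the left in the lung aerocyte-like cluster.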

How the data were processed

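The authors deposited raw UMI counts, 1 matrix of genes by cells for each library, using Cell Ranger and build mm10, per the submitters' processing notes; no source used here gives the versions or the annotation. The matrices have 31053 rows each. Aortic rows are symbols; of the lung rows, named by Ensembl identifier, 30934 matched GENCODE M21 and 119 did not. A second identifier of Ddit3, an overlapping gene model, had 0 UMIs, and reads in the overlap could be lost in counting. The members, lists and markers were chosen with earlier results of these data known.

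Cells with at least 500 UMIs and at most 15% mitochondrial UMIs were clustered tissue by tissue, genotypes together, in scanpy 1.11.5 (2000 variable genes, 30 principal components, 15 neighbours, Leiden resolution 1), without the members, wider lists and side lists of stress genes. A cluster was named with at least 3 markers of a class among its 10 leading genes and a median marker fold of at least 1.5, and called endothelial-like with 7 of 12 endothelial markers in at least 25% of its cells; these thresholds were set after the clusters were seen. No annotation by the authors was used, so names may differ from theirs. Scrublet called 3, 3, 10 and 4 doublets (aorta wild-type and knockout, then lung), which were kept. No correction for free RNA was made.

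Per library, UMIs were summed over endothelial-like cells as CPM with exact Poisson intervals; ratios have exact conditional intervals (scipy 1.17.1), at 95%. For 0 UMIs the limit is that of 3 counts. Ratios need 30 UMIs over both libraries and 50 CPM on average; clusters need 20 cells. The scripts were tested on simulated data. Every member is given; each comparison names members at least 1.5-fold apart, the 3 highest and 3 lowest, and Hspa5, Xbp1, Atf4, Ddit3 and Herpud1, with at most 4 genes per direction from the wider lists; others (Manf, Calr, Pdia6, Edem1, Creld2, Sdf2l1 and members by cluster) were added after their values were seen. Alternatives varied the cell filter, cell type, doublets, scaling, depth, cluster weights, count filter, fold, single cells and clustering, not all of them for every result.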

Additional observations from a re-analysis of the deposited data

Results flagged for a closer look

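Ddit3, which encodes CHOP, stood on opposite sides of 1 in the tissues: its ratio of CPM in knockout over wild-type cells was 0.680 (0.505 to 0.927) in the aorta and 1.52 (1.11 to 2.09) in the lung. It rests on 60 UMIs in the wild-type and 180 in the knockout aorta and on 83 in each lung library. With 1 library per group the difference was not tested.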

How the results depend on the processing

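No ratio whose interval lay off 1 changed direction under the alternatives run for that ratio, but ratios whose interval includes 1 crossed that value. Over the alternatives the degradation sum ranged from 0.907 to 1.05 in knockout over wild-type aorta and from 0.947 to 1.17 for aorta over lung in wild-type mice, and the stress sum from 0.965 to 1.19 in knockout over wild-type aorta and from 0.989 to 1.10 in the lung. Single members that crossed 1 were Calr (to 1.02), Pdia4 (to 1.02) and P4hb (to 0.988) in knockout over wild-type aorta, Canx (to 1.00), Dnajb11 (to 1.06) and Xbp1 (to 0.962) in the lung, and Manf (to 1.01) for aorta over lung in knockout mice. Summed chaperones in knockout over wild-type aorta (1.21) moved to 1.13 with clusters weighted alike and to 1.11 without the Col8a1-led cluster, and in the lung (1.23) to 1.16 with all barcodes as deposited and 1.16 with all kept cells. For aorta over lung they moved in wild-type mice (1.22) to 1.33 without mitochondrial, ribosomal protein and haemoglobin genes in the denominator, and in knockout mice (1.20) to 1.31 with that denominator, 1.26 with all barcodes, 1.26 with all kept cells, 1.10 without the Col8a1-led cluster, 1.12 with the mean of per-cell CPM and 1.11 with cells thinned to 1000 UMIs. Without Herpud1 the degradation sum for aorta over lung in wild-type mice (1.00) moved to 1.17. Without Atf4 the stress sum moved to 1.19 in knockout over wild-type aorta (1.04), and for aorta over lung to 0.592 in wild-type (0.498) and 0.641 in knockout mice (0.485). Members at least 1.5-fold apart in knockout over wild-type aorta (1) numbered 2 with no filter, 0 at 2-fold, 2 with at least 1000 UMIs per cell, 2 with all kept cells and 4 with per-cell means. In the lung (2) they numbered 1 at 100 CPM or more, 8 with no filter, 0 at 2-fold, 1 with at least 1000 UMIs per cell, 0 with all kept cells, 1 with per-cell means and 0 with clusters weighted alike. For aorta over lung (4 in each genotype) they numbered 11 and 9 with no filter and 2 and 2 at 2-fold, in wild-type and knockout mice. The cause of these moves was not tested, apart from the genes or cells that an alternative leaves out. Ratios of single members were run only with the top cell left out of each library and, between genotypes, with clusters weighted alike. They were not run under the other cell filters, cell types, scalings or depth. Of these 117 single-member values 115 stayed inside the main interval. With clusters weighted alike Manf had 1.18 and Sec61b 1.02 in knockout over wild-type aorta. Depth limits Chac1, Hyou1, the sensors and Asns, whose ratios have wide intervals. No paired analysis was possible because each group is 1 library.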

Other observations

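Lymphatic-like cells were present in both tissues (40 wild-type and 190 knockout cells in the aorta, 40 and 19 in the lung). Pdia6 was low in those of the wild-type aorta, at 70.8 CPM against 189 in the other endothelial-like cells, and in those of the knockout aorta, at 129 against 262 CPM. In the wild-type lung Pdia6 was at 21.3 against 133 CPM. The 40 wild-type lymphatic-like cells of each tissue held 186 UMIs over all chaperones in the aorta and 181 in the lung. Both wild-type values of Pdia6 thus rest on few UMIs. The chaperone sum of aortic lymphatic-like cells was 2195 CPM in wild-type and 2957 in knockout cells, a ratio of 1.35 (1.15 to 1.58), and that of Hspa5 was 1.96 (1.36 to 2.92), from 378 and 741 CPM. The chaperone ratio is the highest of the 9 aortic clusters compared, which ran from 1.03 to 1.35. The wild-type value is the lowest chaperone sum of the 9 clusters of its library.

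Atf4 was highest in the Ifit1-led and Ivns1abp-led clusters of the lung, at 587 and 589 CPM in the wild-type and 725 and 765 CPM in the knockout library, against 453 and 284 CPM in the aortic capillary-like cells of the wild-type and knockout libraries.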
